A study of Mus musculus with 3 samples.

Results

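Pluripotency genes are the genes that hold embryonic stem cells (ESCs) in an undifferentiated state and that are switched down when the cells commit to a lineage. The members were 10 such genes, Pou5f1, Nanog, Esrrb, Zfp42, Sall4, Utf1, Lin28a, Lin28b, Tdgf1 and Dppa3, matched by gene symbol to a list of Isl1 binding sites. Isl1 marks progenitors of the second heart field, where this LIM-homeodomain protein binds DNA and regulates transcription. Its binding was mapped by chromatin immunoprecipitation and sequencing (ChIP-Seq) in cardiac progenitor cells (CPCs) differentiated to day 5 from E14 Tg(Nkx2-5-EmGFP) ESCs, a mouse line with a fluorescent reporter for an early cardiac gene. The samples were 2 Isl1 ChIP replicates, made with a monoclonal Isl1 antibody, and 1 input of the same cells, taken before the pulldown. No other genotype, treatment or time point was part of the design, all samples came from this 1 line, and whether the cells used for ChIP were sorted on the reporter, a step the study describes for one of its differentiation protocols and for RNA, is not stated for them. Of 14082 distinct peaks, 4 were assigned to these genes. They belonged to 3 of the 10, namely Lin28b with 2 peaks and Sall4 and Nanog with 1 each, while Pou5f1, Esrrb, Zfp42, Utf1, Lin28a, Tdgf1 and Dppa3 had none in the deposited assignment.

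The 4 peaks came from a single list in which the authors had already combined both replicates. It holds positions and no score or read number, and no list or signal of a single replicate was used here, so for these values the depth is unknown, no replicate error can be attached to any value, and the absence of a peak does not show that a gene was unbound. The list says nothing about expression, so whether the cells had lost the ESC state could not be checked against its markers. Counting intervals below cover counting error over the genes named and nothing else.

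In ESCs, Pou5f1 (Oct4) and Nanog work with Sox2 at the centre of a network of transcription factors that maintain each other's expression. Esrrb, Zfp42 (Rex1), Sall4 and Utf1 are further nuclear factors of that state. Lin28a and Lin28b are RNA-binding proteins that block the maturation of let-7 microRNAs. Tdgf1 (Cripto) is a co-receptor for Nodal, and Dppa3 (Stella) is a maternal and germ cell factor that protects DNA methylation in the early embryo. Sall4 and the Lin28 genes remain in use in embryonic tissues after pluripotency is lost.

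The sequences under the peaks differed in kind, and 200 bp of 3 of the 4 are given here on the strand of the assigned gene, in the mm9 assembly, with CpG dinucleotides in capitals. They come from a start site, an intron and a processed pseudogene.
Lin28b, before its upstream start site, chr10:45206202-45206401, minus strand: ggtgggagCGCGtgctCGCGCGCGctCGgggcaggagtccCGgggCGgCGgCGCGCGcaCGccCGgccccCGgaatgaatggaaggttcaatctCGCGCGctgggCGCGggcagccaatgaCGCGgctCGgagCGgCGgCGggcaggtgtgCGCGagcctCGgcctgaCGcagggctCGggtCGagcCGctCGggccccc
Sall4, centre of the intron peak, chr2:168591438-168591637, minus strand: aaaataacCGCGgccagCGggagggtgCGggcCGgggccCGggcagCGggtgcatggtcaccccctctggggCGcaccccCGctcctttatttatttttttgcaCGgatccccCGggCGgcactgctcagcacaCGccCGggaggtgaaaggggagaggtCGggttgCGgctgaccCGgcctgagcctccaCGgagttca
Nanog, centre of the upstream peak, chr6:122646084-122646283, plus strand: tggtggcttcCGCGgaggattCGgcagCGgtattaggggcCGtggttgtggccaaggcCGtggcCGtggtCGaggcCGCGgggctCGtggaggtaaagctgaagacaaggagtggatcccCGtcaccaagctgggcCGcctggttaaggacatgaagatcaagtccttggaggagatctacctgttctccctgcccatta
The stretches held 35, 18 and 13 CpG dinucleotides in this order, beside a median of 14 in the central 200 bp of all peaks. The sequence before the Lin28b start was chosen next to the peak centre because the centre itself falls in an annotated untranslated region (UTR).

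Lin28b was the member with most peaks. The deposited list placed its wider peak, chr10:45205355-45206778 with 1423 bp, 16059 bp upstream of the Lin28b transcription start site (TSS) at 45190007. In the GENCODE annotation of the same assembly this peak covered 2 further Lin28b start sites of protein-coding transcripts, at 45206201 and 45205583. The peak midpoint lay 135 bp downstream of the former, in its 5′ UTR, and the peak overlapped 169 bp of that exon and 229 bp of the first exon of the other transcript. So the same peak counted as distal in the deposited list and as a promoter peak by the fuller annotation. The 1000 bp around the 45206201 start had a GC content of 75.3% and a CpG observed/expected ratio of 1.09, against 41.7% and 0.437 around the assigned start. Its centre was at 79% GC, above 91.8% of all peaks, and every 31-base word (31-mer) of the peak occurred once in the genome.

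The other Lin28b peak lay in an intron of the gene and is counted below, as multi-copy, without its sequence. Its central 200 bp had a median of 3 copies by 31-mers and of 1 by 75-mers.

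Sall4, a zinc finger factor of ESCs and of limb and heart development, had a peak of 822 bp at chr2:168591126-168591948. Its midpoint was 1164 bp downstream of the Sall4 TSS at 168592701, in an intron, and the peak overlapped 102 bp of an exon of the long noncoding gene Gm14261. A coding Sall4 transcript starting at 168592529 was 992 bp from the midpoint, and another starting at 168590746 was 791 bp away on the other side. The peak therefore stood just outside or just inside 1 kb of a start site according to the transcript used. Its centre had 68% GC, a CpG observed/expected ratio of 0.781 and only single-copy sequence. Among the 10 genes, Sall4 had the highest CpG ratio at its reference TSS, 0.831. A further peak 25465 bp downstream of Sall4 was at the TSS of Atp9a.

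**Figure D1:**
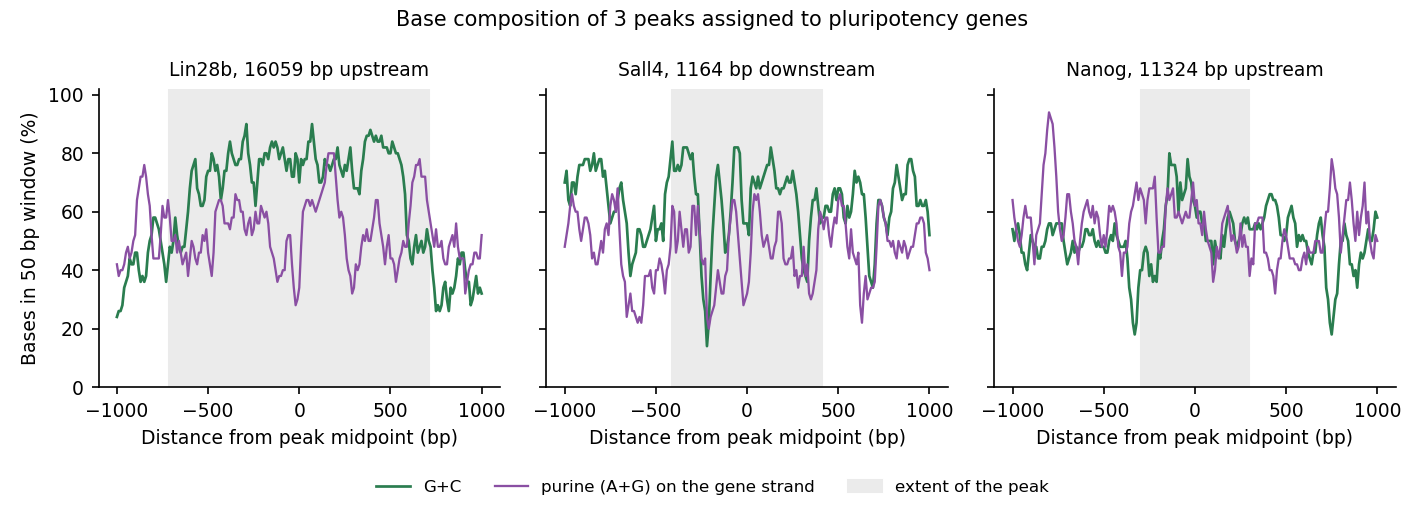
Share of G+C (green) and of purines on the strand of the gene (purple) in 50 bp windows, in percent, against the distance in bp from the midpoint of each of 3 peaks; grey marks the extent of the peak. G+C is high over most of the Lin28b upstream peak of 1423 bp and falls near both of its ends. The central 200 bp hold 79% G+C at that peak, 68% at Sall4 and 61% at Nanog.

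The peak assigned to Nanog did not lie at the Nanog gene itself. It covered chr6:122645886-122646481, 595 bp in all, and its midpoint was 11324 bp upstream of the Nanog TSS at 122657507, within the annotated processed pseudogene Gm10420. Of all peaks, 12.8% were narrower. Comparison with the coding sequence of Rps2, a protein of the small ribosomal subunit, gave 98.1% identity over 882 bases at chr6:122646019-122646900, and the peak overlapped 463 of these bases. The first 120 bases of this match and of the Rps2 coding sequence are given with the 6 bases that differ in capitals, to show how close the copy is.
Pseudogene upstream of Nanog, chr6:122646019-122646138, plus strand: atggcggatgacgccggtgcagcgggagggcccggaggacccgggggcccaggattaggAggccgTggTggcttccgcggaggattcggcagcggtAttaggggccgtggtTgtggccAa
Rps2 coding sequence, from its start codon: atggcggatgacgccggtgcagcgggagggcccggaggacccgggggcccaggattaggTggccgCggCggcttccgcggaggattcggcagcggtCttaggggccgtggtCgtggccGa
Reads from such a copy can be hard to place. The 31-mers of the peak inside the Rps2 match had a median of 13 genomic copies and a maximum of 47, and 23.1% of them occurred once, whereas the 103 31-mers wholly in the 133 bp of peak before the match all occurred once. In the central 200 bp the median was 17 copies, and it was 9 with 75-mers.

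Rps2-like copies elsewhere were examined after the Nanog peak had been seen. The mm9 chromosomes held 63 stretches that matched the Rps2 coding sequence over at least 400 bases with at least 90% identity. A peak overlapped 4 of them (6.35%, exact binomial interval 1.76% to 15.5%). The interval treats these similar copies as independent, and the share was not compared with that of other pseudogenes. Besides the Nanog peak these were peaks assigned to Pnn, Por and Phf6, at identities of 98.9%, 92% and 99.2%. The centres of these peaks had medians of 11.5, 1 and 24 copies in this order, so the Por peak was at single-copy sequence.

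The counts were set beside those of all protein-coding genes. An assigned peak was found for 3 of the 10 members (30%, exact binomial interval 6.67% to 65.2%) and for 37.5% of 21896 protein-coding genes. Peaks no further than 1 kb from the assigned TSS were found for 0 of 10, against 23.2% of protein-coding genes. Within 10 kb the count was 1 of 10, Sall4, against 27.2%. A peak at single-copy sequence, defined by a median below 2 copies, was found for 2 of 10, Lin28b and Sall4, against 27.6%. By any coding start site of GENCODE, Lin28b and Sall4 had a peak within 1 kb, against 26.1% of 22219 genes. A count of 0 of 10 allows a share of up to 30% if 3 counts are taken as the limit, and up to 30.8% by the exact interval. For an assigned peak and for a peak this close, the share of all genes lay inside the interval of the members, so that a difference of either could not be detected with 10 genes.

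Of the 7 members without an assigned peak, several had peaks nearby that belonged to neighbours. The closest to Pou5f1 was 15022 bp downstream of its TSS at chr17:35657741-35658268, 527 bp wide and assigned to Cchcr1. Pou5f1 had 4 peaks within 100 kb, where 85.3% of protein-coding genes had fewer. The other 3 were at the start sites of the major histocompatibility genes H2-Q6, H2-Q9 and H2-Q10. Those of H2-Q6 and H2-Q9 had a median of 3 copies each, and that of H2-Q10 was single-copy. A peak assigned to Pou5f1-rs4, a Pou5f1-related sequence, was noticed after the values were seen and was not counted. It lay 20349 bp from that TSS and had a median of 2760 copies.

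Dppa3 lies in the same cluster as Nanog and Gdf3. Its closest peak, chr6:122565039-122566230, was 10794 bp upstream of the Dppa3 TSS and was assigned to Gdf3, a ligand of the TGF-beta family. The median 31-mer at the centre of that peak occurred 26598 times in the genome. The Nanog peak lay 69755 bp downstream of the Dppa3 TSS. Thus both peaks within 100 kb of Dppa3 were on multi-copy sequence, and no single-copy peak was found there or within 100 kb of Nanog.

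For Lin28a the closest peak was at the TSS of Hmgn2, 51004 bp downstream, with a median of 2 copies, and a single-copy peak lay 54309 bp upstream and was assigned to Aim1l. The closest peak to Tdgf1 was at the TSS of Als2cl, 65962 bp away. Utf1, whose protein binds chromatin in ESCs, had peaks 91709 bp upstream, assigned to Adgra1, and 92617 bp downstream, at the TSS of Zfp511. The Adgra1 peak had a median of 4 copies and the Zfp511 peak was single-copy. Esrrb, an orphan nuclear receptor, and Zfp42, a zinc finger protein, had no peak within 100 kb of the reference TSS, the start shared by most coding transcripts. The other 8 of 10 members had at least 1, as did 77% of protein-coding genes. The nearest peaks were 130421 bp from the Esrrb TSS, assigned to Vash1, and 458046 bp from the Zfp42 TSS, assigned to Triml1, and both were multi-copy. From another coding start of Esrrb, at 87811067, the same peak was 81948 bp away, and by the closest coding start it would be assigned to Esrrb, which then has a peak. A nearer peak than that of Zfp42 was found for 98.5% of protein-coding genes.

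**Figure D2:**
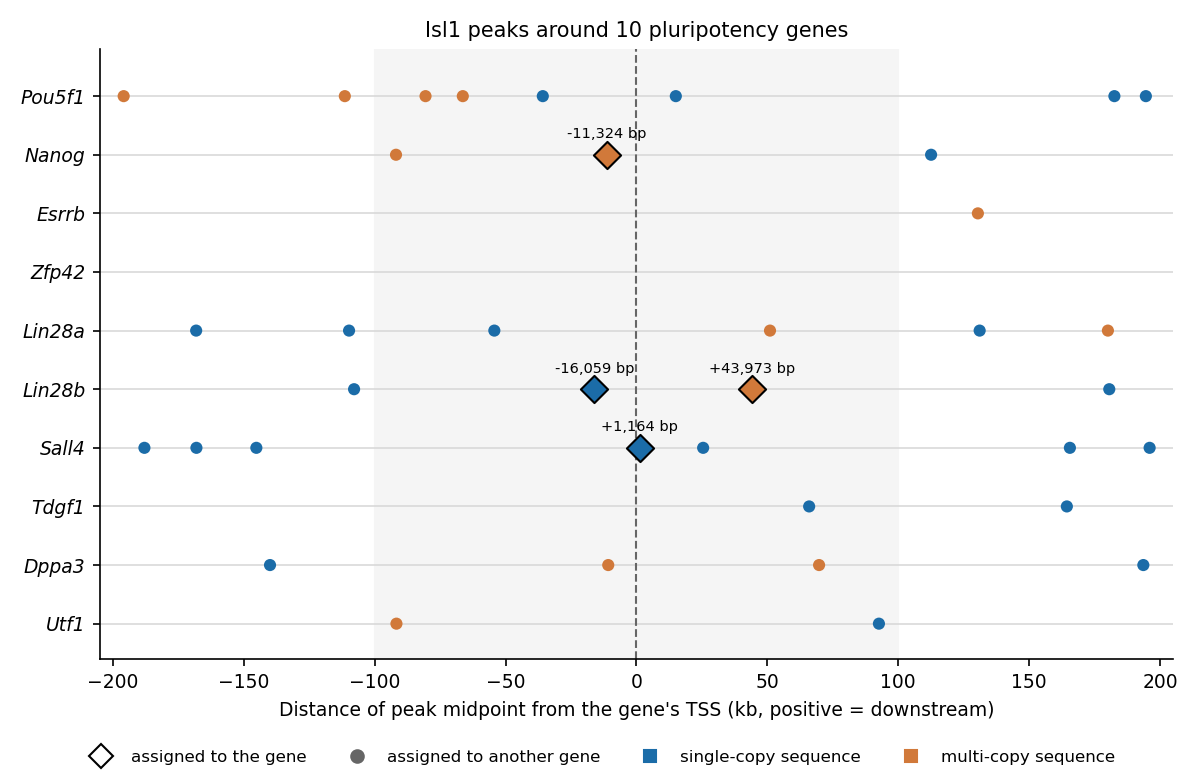
Peaks within 200 kb of each of the 10 genes, against the distance in kb of the peak midpoint from the TSS (dashed line), positive downstream; the shaded band marks 100 kb to either side. Diamonds are the 4 peaks assigned to the gene itself and circles those assigned to other genes; orange marks multi-copy sequence. Esrrb and Zfp42 have no peak in the band, and Pou5f1 has 4.

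In total 15 distinct peaks lay within 100 kb of a member TSS, and 11 of them were assigned to other genes. Of these 11, 7 were within 1 kb of the TSS they were assigned to. The 15 comprised 8 single-copy and 7 multi-copy peaks, and 46.5% of all peaks were multi-copy. The members had a median of 2 peaks within 100 kb and a mean of 1.7, against a median of 1 and a mean of 1.89 over 22219 protein-coding genes. The median distance from the TSS to the nearest peak was 33532 bp for the members and 32689 bp for protein-coding genes. Nanog and Dppa3 share both of their peaks, and these values were not tested.

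Peaks at start sites were frequent where CpG content was high, and the promoters of the members were compared on that scale. Promoters were called CpG-rich when the 1000 bp around the reference TSS had at least 55% GC and a CpG observed/expected ratio of at least 0.6. Among protein-coding genes 38.8% were CpG-rich, and a peak within 1 kb was found for 54% of those and for 4.55% of the rest. Of the members, 3 were CpG-rich, Esrrb with a ratio of 0.663, Utf1 with 0.797 and Sall4 with 0.831. The other 7 had ratios from 0.304 at Nanog and 0.335 at Pou5f1 to 0.601 at Tdgf1, which missed the limit on GC content with 45.7%. Lin28b belonged to these 7 at its reference TSS and not at its upstream start sites, which lay under the peak. None of these 3 CpG-rich members had a peak within 1 kb of the reference TSS, with the Sall4 peak at 1164 bp. The part of CpG content in the member counts was not tested.

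**Figure D3:**
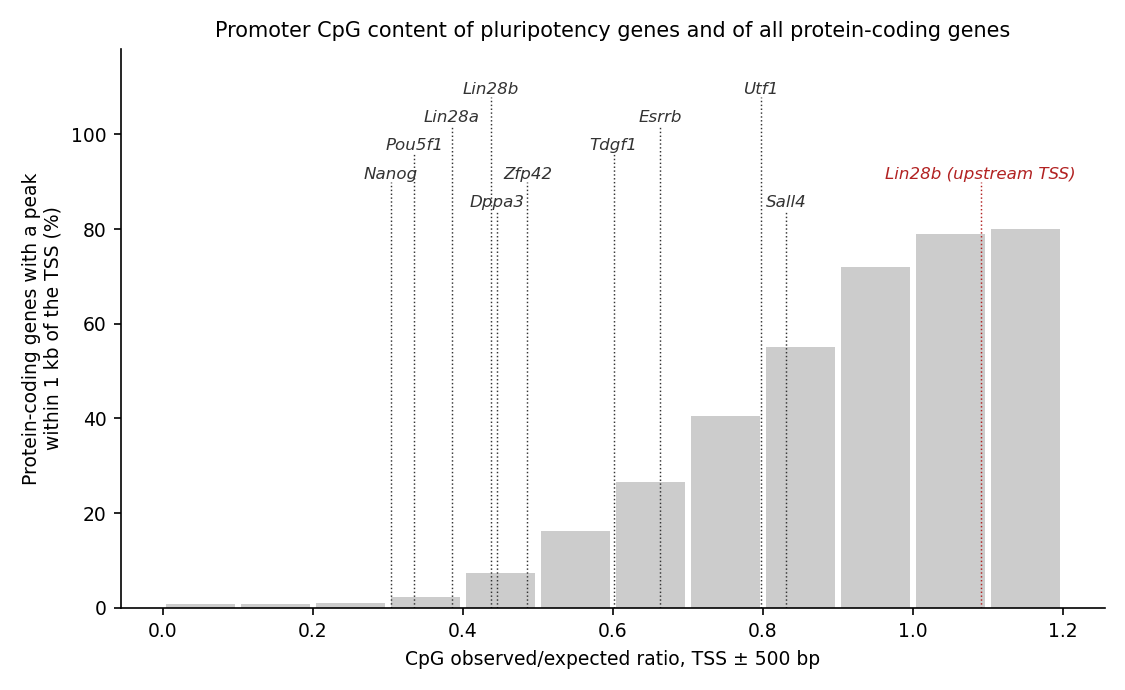
Percent of protein-coding genes with a peak within 1 kb of the reference TSS (grey bars), by CpG observed/expected ratio in the 1000 bp around the TSS. Dotted lines give the ratio of each of the 10 genes at its reference TSS and, in red, of Lin28b at its upstream TSS at 1.09, the only start shown with a peak within 1 kb; most of the other lines fall where few genes have a peak.

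The middle 200 bp of the 4 peaks were searched, on either strand, for short strings that transcription factors read. The homeodomain core TAAT was present in 1 of 4, the Nanog peak, and in 19.4% of all peaks. The longer LIM-homeodomain strings CTAATGG and CTAATTG, which contain that core, were in 0 of 4 and in 0.22% and 0.192% of all peaks. The GATA strings AGATAA and TGATAA were in 0 of 4, against 1.7% and 0.518%, and ATGCAAA, part of the octamer read by Pou5f1, was in 0 of 4, against 0.348%. The GC box GGGCGG was in 2 of 4, at Sall4 and at the upstream Lin28b peak, and in 42% of all peaks. It was in 65.7% of peaks within 1 kb of a TSS and in 26.1% of those beyond 10 kb.

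Other genes of the ESC state were read from lists to place the 10 members. Of all protein-coding genes, 37.5% had an assigned peak, 23.2% one within 1 kb and 27.6% one at single-copy sequence. Of 16 further transcription factors of the naive ESC network, 12 had a peak, and 8 of these had one at single-copy sequence. In 7 a peak lay within 1 kb of the TSS. These 7 were the Krüppel-like factors Klf2 at 476 bp and Klf5 at 197 bp, Gbx2 at 337 bp, Mycn at 100 bp, Tbx3 at 364 bp, Trim28 at 455 bp and Zfp281 at 379 bp, with single-copy sequence at each. Sox2, the partner of Pou5f1, and Prdm14, Nr0b1 and Zscan10 had no assigned peak. Sall1, a paralogue of Sall4, is named outside the rules for list genes given below. It had its nearest peak 1285 bp from the TSS, at a distance similar to the 1164 bp of Sall4, and a second peak.

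Leukaemia inhibitory factor (LIF) acting through STAT3 keeps mouse ESCs undifferentiated. Of 8 genes of this pathway, all but Stat3 had a peak, and in these 7 it was within 1 kb. Lif itself, which encodes the ligand, had a peak at 38 bp, the receptor genes Lifr at 22 bp and Il6st at 75 bp, the kinase gene Jak1 at 251 bp, and the targets Pim1 at 183 bp, Socs3 at 686 bp and Pim3 at 744 bp. Of 20 marker genes of ESCs, 8 had a peak and 5 within 1 kb, which were Epcam, Fgf4, Rest, Tet2 and Trim71. Dppa4, which was singled out after its values were seen, had 8 assigned peaks, all multi-copy and from 33266 to 725748 bp from its TSS.

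Of 12 genes of the later epiblast, 6 had a peak and 5 within 1 kb, namely Dnmt3a, Dnmt3b, Foxd3, Pou3f1 and Zic2. Of 14 genes of the primitive streak and early mesoderm, 10 had a peak and 9 within 1 kb, and of 24 regulators of heart progenitors 17 had a peak and 13 within 1 kb. None of the peaks within 1 kb in these 6 lists was multi-copy, where 2.62% of all peaks at that distance were. The list genes with the same number of peaks and the same distance class as Nanog were L1td1, Lef1, Mef2c, Fgf10 and Tfcp2l1, those like Sall4 were Gdf3 and Pdgfra, and Nr5a2 was like Lin28b. In each of these 8 genes every peak was multi-copy, as were 81.2% of all peaks beyond 10 kb and 38.4% of those at 1 to 10 kb. The lists hold genes in use in many embryonic tissues, were written from general knowledge, and were not tested against the 10 members.

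**Figure D4:**
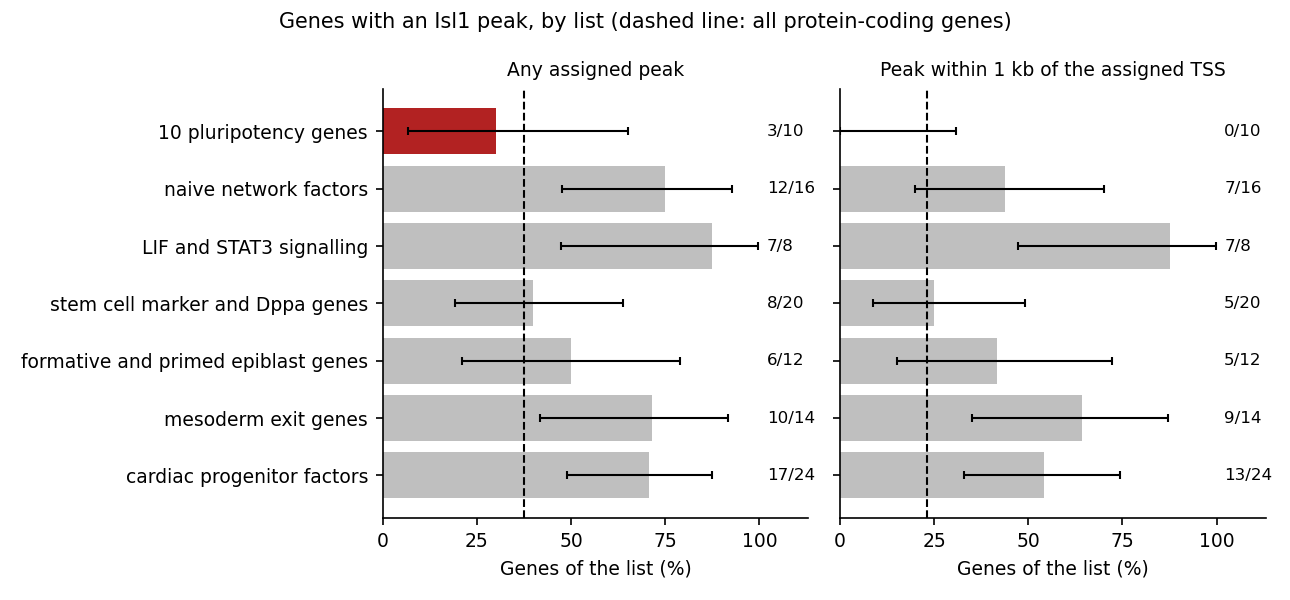
Percent of the genes of each list with any assigned peak (left) and with one at most 1 kb from the assigned TSS (right), with counts at the right edge and exact 95% binomial intervals that cover counting error only. Dashed lines give all protein-coding genes, 37.5% and 23.2%, and the 10 pluripotency genes (red) stand at 30% and 0%. By any coding start site 2 of the 10, Lin28b and Sall4, have a peak within 1 kb, against 26.1% of protein-coding genes. The other lists were not recounted in this way.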

How the data were processed

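The 3 samples, 2 Isl1 ChIP replicates and 1 input, were grouped by their titles. Per the methods of the study, the authors aligned reads to mm9 with bowtie2, removed duplicates with Picard 1.136, called peaks with MACS14 without a model, dropped blacklisted regions, kept areas common to both replicates with bedtools 2.15 and assigned each peak to the closest TSS with HOMER. The deposited list gives chromosome, start, end and signed distance in bp. Repeated lines (83 of 14165) were counted once. Starts are uncertain by 1 bp.

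The genes and lists were chosen with earlier results of these data known. Sequence and gene positions came from NCBI m37 (the mm9 sequence) and GENCODE vM1, and the protein-coding class from a RefSeq table of GRCm38, which matched 9297 gene names and not 16. Each gene's reference TSS was the start shared by most coding transcripts, with ties going to the 5′-most start, and it equalled the start implied by the deposited distance for all 4 member peaks. Copy number was the median number of times, counting either strand, that 31-mers from the middle 200 bp of a peak occur in the genome, with a median of at least 2 called multi-copy. The counter was tested on simulated data. Rps2 copies were found with BLAST 2.17.0 (E at most 1e-30). The text names all members, list genes with a member's peak number and distance class, and the genes of neighbouring peaks. List genes with a peak within 1 kb (at most 8 a list, alphabetically) are named except for the mesoderm and heart progenitor lists. Sall1, Dppa4 and some list genes without a peak are named outside these rules. The sequence of the intronic Lin28b peak is not reported here. No test was run, because the list has no replicate values. The use of all coding start sites, the promoter classes and the Rps2 copies were added after seeing the data. Python 3.11.15 and SciPy 1.17.1 were used.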

Additional observations from a re-analysis of the deposited data

How the results depend on the processing

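Leaving out each replicate was not run, since the list used here merges both and no list of a single replicate was used. No paired analysis was possible because the input and the ChIP samples have fewer than 2 replicate numbers in common. Of 46 alternative values for 21 results, 36 stayed within 1.5 times the reported count, or within 1 SD for width and GC content. Dropping peaks under 500 bp, joining those 1000 bp or less apart and keeping repeated lines moved none of the results they were applied to. With the closest protein-coding TSS of GENCODE the members with a peak numbered 4 instead of 3 and their peaks 5 instead of 4, by the addition of Esrrb. The members with a peak within 1 kb numbered 2 instead of 0, and 2 instead of 1 within 10 kb. The upstream Lin28b start sites and a further Sall4 start then count. For protein-coding genes only the 26.1% within 1 kb of any coding start was counted by GENCODE starts. The shares of 37.5% and 27.2% belong to the deposited assignment and do not match these member counts. Single-copy sequence left 2 of the 4 peaks, 8 instead of 12 naive network factors and 5 instead of 8 ESC marker genes, by construction. It left 7 of 7 genes of the LIF list, 5 of 6 of the later epiblast, 9 of 10 of mesoderm and 15 of 17 of heart progenitors. With 75-mers 1 of the 4 peaks was multi-copy, that of Nanog, and the intronic Lin28b peak was not. TAAT was in 3 of 4 whole peaks and in 0 of 4 central 100 bp, against 74% and 9.59% of all peaks. TGATAA was in 1 of 4 whole peaks, against 10.4%. Within 50 kb of the members there were 8 peaks and within 200 kb 34, against 15 within 100 kb. The windows differ in length by construction.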
